A study of Mus musculus with 11 samples.

Results

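Non-coding features at Esrrb and Esrrg, the genes of 2 related nuclear receptors, were followed in mouse retina with and without Nrl. Every unique feature of the deposited table that overlapped either gene, with a short margin on each side, was taken, whatever its strand or level. The rule gave 19 of 36097 features, 8 at Esrrb and 11 at Esrrg. Of these, 18 lay inside the gene on the opposite (minus) strand and are called antisense by their listed strand, and 1 lay on the plus strand beyond the end of Esrrb. No feature on the plus strand inside either gene was among them, and none overlapped an annotated exon of the 2 receptors. The features are assembled transcripts of 110 to 4451 bp.

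The libraries came from retinas of mice at postnatal day 21 and fall into 6 Nrl-KO libraries, in which Nrl is knocked out, and 5 wild-type libraries. RNA depleted of poly A transcripts was sequenced as stranded single reads of 50 bp, so transcripts without a poly A tail are represented. The labels give no knock-out allele, strain, sex or pooling of retinas, and their replicate numbers name no animals. The p-values therefore cover only the variation among these libraries, some of which may be technical. Values are the authors' DESeq2-normalised read counts.

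Estrogen-related receptors are orphan nuclear receptors that bind DNA at a short element and work with coactivators of the PGC-1 family to drive genes of mitochondrial energy metabolism. ESRRB is known in the retina as a receptor of rod photoreceptors, and ESRRG is best known from heart, muscle, kidney and brain. NRL, a basic leucine zipper factor, commits developing photoreceptors to become rods, and without it they are known to take on features of cones. An antisense transcript is read from the strand opposite to a gene. It may start near one of the gene's promoters and run away from it, or inside the gene.

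Both receptor genes are read from the plus strand and have several starts. Esrrb spans 160512 bp of chromosome 12 (86361117 to 86521628, mm10), with GENCODE starts at 86361117, 86421644, 86421883, 86470117 and 86504409. Esrrg spans 606095 bp of chromosome 1 (187608791 to 188214885), with GENCODE starts at 187608791, 187609029, 187609696, 187997827 and 187997868, and RefSeq lists further starts at 187651758 and 187652241. Promoters at 3 of the RefSeq starts are given here as the 250 bases before each start, plus strand, 5′ to 3′. They are from RefSeq on GRCm38.p6, the assembly called mm10. Each was chosen as the nearest RefSeq start to antisense features described here, though 187997827 is 32944 bp from the 5′ end of MSTRG.6874. In the first, capitals mark the 57 bases that MSTRG.21440 overlaps, and the other 2 are overlapped by no feature.
Esrrb start at 86421644, chr12:86421394-86421643: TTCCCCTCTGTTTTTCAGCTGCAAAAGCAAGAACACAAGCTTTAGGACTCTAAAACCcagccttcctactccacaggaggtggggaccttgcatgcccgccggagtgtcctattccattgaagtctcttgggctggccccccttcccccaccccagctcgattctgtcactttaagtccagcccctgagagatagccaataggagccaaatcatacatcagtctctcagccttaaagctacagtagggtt
Esrrg start at 187651758, chr1:187651508-187651757: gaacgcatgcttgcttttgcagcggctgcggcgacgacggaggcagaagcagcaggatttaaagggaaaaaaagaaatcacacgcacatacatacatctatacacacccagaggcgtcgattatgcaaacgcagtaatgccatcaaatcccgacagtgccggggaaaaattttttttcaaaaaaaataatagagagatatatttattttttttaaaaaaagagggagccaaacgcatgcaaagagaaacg
Esrrg start at 187997827, chr1:187997577-187997826: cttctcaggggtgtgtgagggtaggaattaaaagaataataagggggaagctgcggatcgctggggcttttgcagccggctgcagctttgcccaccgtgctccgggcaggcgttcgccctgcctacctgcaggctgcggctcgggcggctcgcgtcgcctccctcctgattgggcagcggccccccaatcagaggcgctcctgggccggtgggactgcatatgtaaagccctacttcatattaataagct
The 300-base windows around all RefSeq starts of both genes, 2 at Esrrb and 4 at Esrrg, were searched on both strands. The motifs were the estrogen-related receptor element TCAAGGTCA, its core AAGGTCA, which is contained in it, the Maf-type sites TGCTGAC and TGCTGAG, and the CRX core TAATCC. None of these letters was found in the 6 windows. The Esrrb starts at 86421883, 86470117 and 86504409 and the Esrrg start at 187609696 are not RefSeq starts, lie outside these windows and were not searched. Of these, 86421883 is the nearest start to MSTRG.21442 and MSTRG.21443, and 86470117 to MSTRG.21444. The start at 86504409 is the nearest to MSTRG.21446, MSTRG.21447 and MSTRG.21449. Among 32851 RefSeq promoters of the same length the shares holding the motifs were 0.423%, 4.72%, 4.67%, 7.84% and 7.06%.

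The labels were first checked at Nrl itself. The feature opposite to Nrl, MSTRG.28375, had 0 to 0.758 normalised counts in Nrl-KO, with 5 of 6 libraries at 0, and 33.3 to 55.5 in wild-type. Listed features held 3374221 to 4876429 reads per Nrl-KO library and 3238184 to 4150460 per wild-type library, and a count of 0 allows up to 2.28 to 3.12 normalised counts in Nrl-KO libraries and 2.78 to 4.11 in wild-type libraries. Features at rod marker genes moved down with the knock-out. Of 38 tested features at 15 of 19 rod genes, 28 were lower and 4 higher, beside 12.6% lower and 15.6% higher among all tested features, and their sum was 549 to 911 in Nrl-KO and 3314 to 5664 in wild-type, with no tested feature at Gngt1, Nr2e3, Rcvrn and Rom1. Of 29 tested features at 10 of 14 cone genes, 20 were higher and 2 lower, and their sum was 1231 to 1938 in Nrl-KO and 348 to 394 in wild-type, with none at Cnga3, Gnb3, Gngt2 and Opn1mw. The largest changes were at MSTRG.65738 of Gnb1 (1.34 ± 1.05 in Nrl-KO and 597 ± 133 in wild-type) and MSTRG.68455 of Cnga1 (0.289 ± 0.453 in Nrl-KO and 328 ± 87.1 in wild-type) among rod genes. Among cone genes they were at MSTRG.72793 and MSTRG.72794 of Opn1sw, the short-wave cone opsin (log2 differences 4.90 and 4.54). Of 14 tested features at bipolar cell genes 2 were higher, MSTRG.77945 at Cabp5 and MSTRG.5399 at Lhx4 (log2 differences 3.90 and 2.08), and 1 was lower, with sums of 478 to 721 in Nrl-KO and 361 to 621 in wild-type. In whole retina, fewer cells of a type and less RNA per cell cannot be told apart, and the part of the marker shifts in the results below was not tested.

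At Esrrb, the summed antisense signal was far lower in the knock-out retina, but not every feature was lost. MSTRG.21444 averaged 23.2 normalised counts in Nrl-KO and 32.9 in wild-type. Of 7 tested features, 6 were lower in Nrl-KO and 1 missed the threshold. The median log2 difference of the 7 was -3.51, while 12.6% of all 21395 tested features were called lower and the median of all was -0.02. A call is a Benjamini-Hochberg adjusted p below 0.05 in limma, fitted over all features with a mean of at least 5 normalised counts, on log2(normalised count + 1). This scale understates the change of low features. After a log2 difference ± is the SE, and after a mean it is the SD. No Esrrb feature was called higher by limma, edgeR or DESeq2, and none was higher at an unadjusted p under 0.05. The groups did not overlap at 5 of the 7 tested features, all with wild-type above, beside 9.13% of all tested features in that direction and 20.2% in either.

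The most abundant feature, MSTRG.21447, covers 991 bp (86506765 to 86507755) at 91.0% of the length of the gene and lies 255 bp from the nearest exon. Its values were 2.08, 4.04, 0, 3.84, 2.28 and 0 normalised counts in Nrl-KO libraries 1 to 6, against 506, 327, 215, 352 and 401 in wild-type libraries 1 to 5. Every wild-type library was far above every Nrl-KO library, and 2 Nrl-KO libraries had no read. The means were 2.04 ± 1.77 in Nrl-KO and 360.5 ± 106 in wild-type (SD, n = 6 and 5), with a log2 difference of -7.12 ± 0.38 (SE, limma, adjusted p = 3.11e-14). Summed reads were 13 in Nrl-KO and 1711 in wild-type, which makes the wild-type level 176 times that of Nrl-KO (95% interval 103 to 331, counting error only). The authors' deposited table lists -7.50 ± 0.46 for the same feature. Among all features called lower, it stood at rank 26 by the size of the log2 difference.

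MSTRG.21449 lies further along, 371 bp from an exon (86515893 to 86516792, 900 bp), and is the last antisense feature of the gene. It had 9.36, 8.08, 4.15, 10.6, 3.79 and 4.88 normalised counts in Nrl-KO, against 137, 89.4, 65.0, 99.6 and 101 in wild-type. The groups did not overlap, but unlike MSTRG.21447 it was read in every Nrl-KO library. Its means of 6.80 ± 2.90 in Nrl-KO and 98.4 ± 26.0 in wild-type differed by -3.72 ± 0.28 on the log2 scale (limma, adjusted p = 3.04e-11). MSTRG.21446, a short feature of 303 bp before both (86500865 to 86501167), had 0, 1.01, 0, 0, 0.758 and 0 normalised counts in Nrl-KO, against 9.60, 20.7, 9.28, 16.4 and 12.1 in wild-type. Only 2 reads were counted in all Nrl-KO libraries together and 68 in wild-type, so the wild-type level was 45.4 times that of Nrl-KO with an interval of 12.1 to 383. The log2 difference was -3.51 ± 0.44 (limma, adjusted p = 3.19e-07).

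MSTRG.21446 and MSTRG.21447 lie on either side of the internal start of Esrrb at 86504409. Earlier in the gene, around the internal starts at 86421644 and 86421883, lay another group. The 5′ end of MSTRG.21440 (86421070 to 86421450, 381 bp) is 194 bp upstream of the start at 86421644, and it runs away from it. It had 3.12, 2.02, 0.830, 0.960, 0.758 and 0.976 normalised counts in Nrl-KO, against 15.1, 20.7, 9.28, 13.5 and 17.1 in wild-type. Each Nrl-KO library held at most 3 reads. By summed reads, 9 in Nrl-KO and 74 in wild-type, the wild-type level was 10.99 times that of Nrl-KO (interval 5.49 to 24.98), with a log2 difference of -2.76 ± 0.39 (limma, adjusted p = 2.3e-06). MSTRG.21442 (86426549 to 86427390, 842 bp) lies in an intron, 4581 bp from the nearest exon. It had 0, 1.01, 0, 0, 0.758 and 1.95 normalised counts in Nrl-KO, against 76.8, 54.6, 46.4, 56.1 and 83.7 in wild-type, a log2 difference of -5.41 ± 0.36 (limma, adjusted p = 2.9e-12). Only 4 reads were found in Nrl-KO, against 305 in wild-type, and 3 of 6 Nrl-KO libraries had none.

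The remaining antisense features of Esrrb overlapped between groups. MSTRG.21443 (86431268 to 86431776) had 9.36, 6.06, 4.98, 3.84, 3.79 and 0.976 normalised counts in Nrl-KO, against 15.1, 17.9, 3.71, 31.0 and 58.5 in wild-type. It was called lower (log2 difference -1.89 ± 0.49, limma, adjusted p = 0.00334), but wild-type 3 was below 5 of the 6 Nrl-KO libraries. MSTRG.21444, 651 bp in the middle of the gene (86453085 to 86453735), had 35.4, 36.3, 17.4, 30.7, 9.86 and 9.76 in Nrl-KO, against 27.4, 33.9, 22.3, 45.5 and 35.3 in wild-type. Its log2 difference was -0.63 ± 0.32 (95% interval -1.30 to 0.04, limma, adjusted p = 0.164), so it was the one tested Esrrb feature that did not pass. Nrl-KO libraries 1, 2 and 4 were within the wild-type range and libraries 3, 5 and 6 below it.

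**Figure D1:**
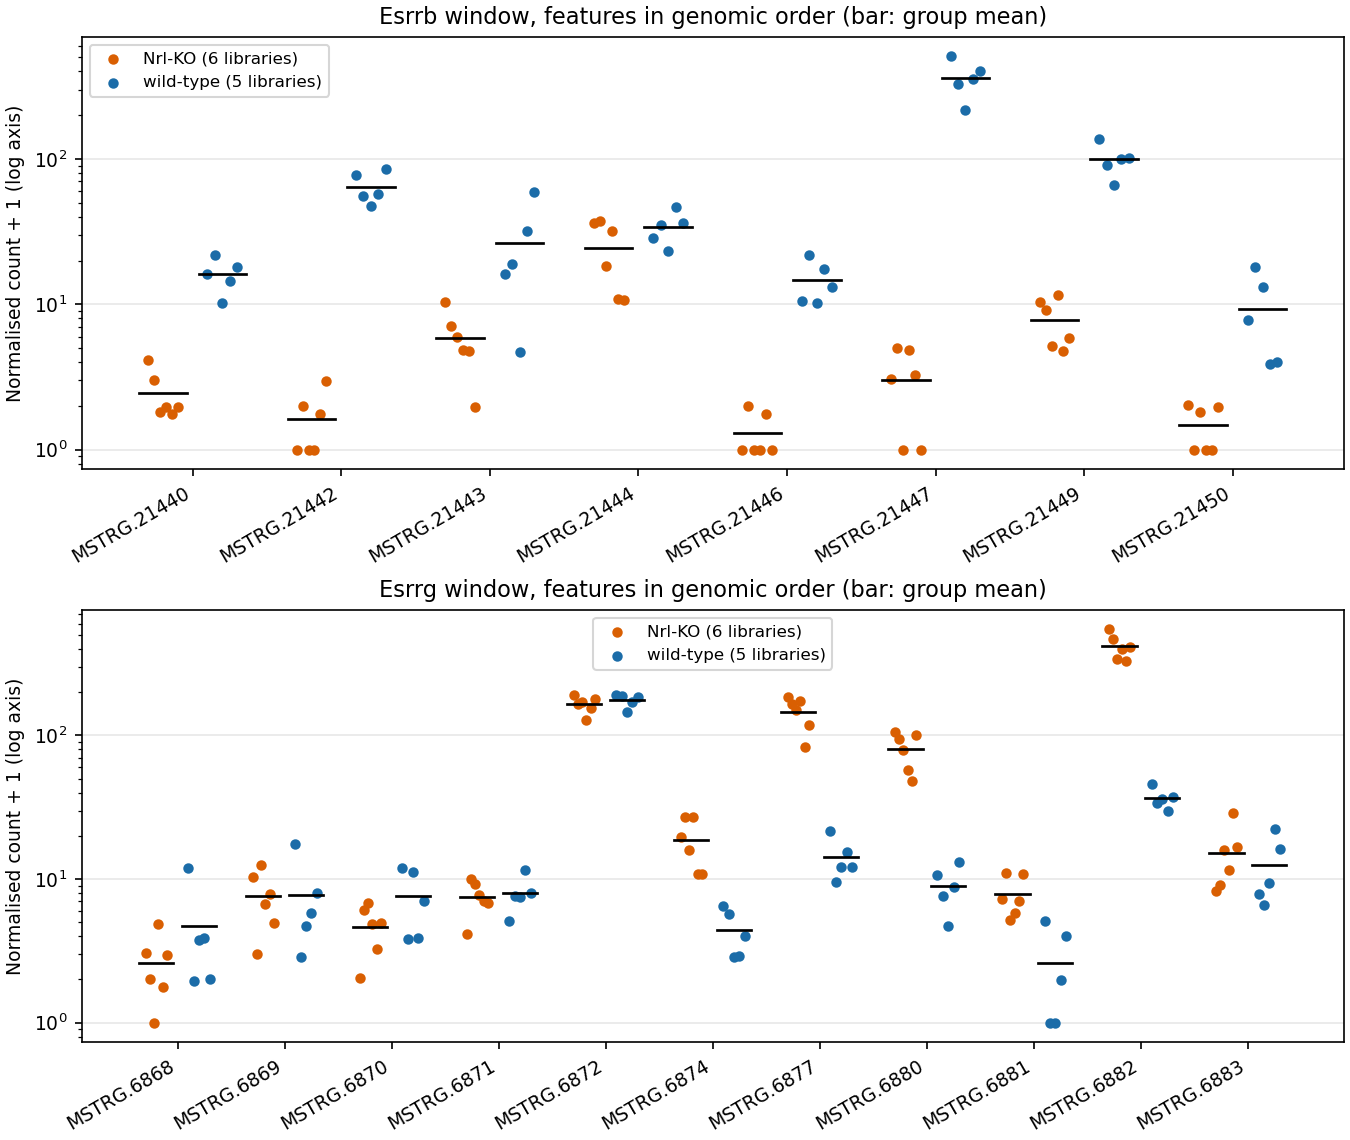
Each of the 19 features in genomic order (top Esrrb, bottom Esrrg), with a point for each library at normalised count + 1 on a log axis, Nrl-KO left of wild-type, and a bar at the group mean of the counts, plus 1. MSTRG.21447 and MSTRG.21442 of Esrrb have the widest gap below wild-type, while every Nrl-KO library of MSTRG.6874, MSTRG.6877, MSTRG.6880 and MSTRG.6882 of Esrrg lies above wild-type.

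Past the end of Esrrb the plus strand also held reads. MSTRG.21450 (86524673 to 86525021), 3045 bp beyond the annotated end, had 1.04, 0, 0.830, 0, 0 and 0.976 normalised counts in Nrl-KO, against 6.86, 16.9, 12.1, 2.90 and 3.03 in wild-type. Its mean was under the limit for testing, and without that limit its log2 difference was -2.48 ± 0.52 (limma, adjusted p = 0.000204), where 9.12% of all 36097 features were called lower. The groups did not overlap, but all Nrl-KO values and some wild-type values lie at or under the level that a count of 0 allows. Just outside, MSTRG.21451, also on the plus strand and 724 bp outside the window, averaged 0.415 ± 1.02 in Nrl-KO and 4.80 ± 4.26 in wild-type. On the other side the closest feature, MSTRG.21428, was 491421 bp away and had the opposite direction, with 9.96 ± 2.61 in Nrl-KO and 1.503 ± 1.26 in wild-type. MSTRG.21427, next to it, averaged 7.10 in Nrl-KO and 5.73 in wild-type, and MSTRG.21452, 121211 bp after the window, 280.2 ± 78.4 in Nrl-KO and 232 ± 70.7 in wild-type.

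At Esrrg the called features went the other way, and they lay in one stretch of the gene. Of 8 tested features, 4 were higher in Nrl-KO and 4 missed the threshold, with a median of 1.18 on the log2 scale, beside 15.6% called higher and a median of -0.02 among all tested features. At these 4 every Nrl-KO library was above wild-type, which held for 11.1% of all tested features. None was called lower by limma, edgeR or DESeq2, and none was lower at an unadjusted p under 0.05. All 4 called features lie between 187964376 and 188030216, around and after the start at 187997827. Most of the others lie within the span of Gm36388, an annotated antisense non-coding gene (187616852 to 187651824) at the first part of Esrrg. Another annotated antisense gene, 9330162B11Rik (188006576 to 188008990), lies between the start at 187997827 and MSTRG.6877. No feature overlaps it, and whether the called features belong to it was not tested.

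MSTRG.6882 was the most abundant of the called features. It covers 3481 bp of an intron (188026736 to 188030216), 4253 bp from the nearest exon, and had 547, 468, 340.2, 399, 328 and 412 normalised counts in Nrl-KO, against 45.3, 32.9, 35.3, 29.0 and 36.3 in wild-type. The lowest Nrl-KO library, at 328, was well above the highest wild-type library, at 45.3, and wild-type was not silent. The means were 416 ± 82.0 in Nrl-KO and 35.8 ± 6.00 in wild-type, a ratio of 11.6 and a log2 difference of 3.50 ± 0.18 (SE, limma, adjusted p = 1.93e-14). The authors' deposited table lists 3.55 ± 0.20. By size of the log2 difference it was at rank 319 among all features called higher.

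Its neighbours MSTRG.6877 and MSTRG.6880 had nearly the same ratio. MSTRG.6877 (188013005 to 188014748, 1744 bp) had 184, 165, 149, 174, 81.9 and 118 normalised counts in Nrl-KO, against 20.6, 8.47, 11.1, 14.5 and 11.1 in wild-type, a log2 difference of 3.38 ± 0.24 (limma, adjusted p = 1.54e-11). MSTRG.6880 (188019954 to 188022128, 2175 bp), which lies 234 bp from an exon, had 104, 92.9, 78.0, 56.6, 47.0 and 101 in Nrl-KO, against 9.60, 6.59, 3.71, 7.74 and 12.1 in wild-type. The ratios of means were 11.03 and 10.05, beside 11.6 at MSTRG.6882, with no overlap between groups at any of them. MSTRG.6881, a fragment of 180 bp between MSTRG.6880 and MSTRG.6882, was too low to be tested and had 4.15 to 10.1 in Nrl-KO, against 0 to 4.11 in wild-type. Without the limit on low values its log2 difference was 1.84 ± 0.48 (limma, adjusted p = 0.00277), where 4314 of 36097 features were called higher. All 5 wild-type values of MSTRG.6881, 7 reads in all, lie at or under the level that a count of 0 allows.

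MSTRG.6874 stands apart in position, 32944 bp upstream of the start at 187997827 (187964376 to 187964883, 508 bp). It had 18.7, 26.3, 14.9, 25.9, 9.86 and 9.76 normalised counts in Nrl-KO, against 5.49, 4.70, 1.86, 1.93 and 3.03 in wild-type. The groups did not overlap, but 3 wild-type values lie at or under the level that a count of 0 allows. Wild-type libraries held 16 reads in all. The log2 difference was 2.06 ± 0.36 (limma, adjusted p = 4.03e-05), on a scale that understates the change of low features. It was 3.20 to 3.50 at the 3 called features after the start. Whether MSTRG.6874 differs from these 3 was not tested. In the other direction along the gene, MSTRG.6883 (188094329 to 188094565) was not called, with 7.28 to 28.1 in Nrl-KO, against 5.65 to 21.3 in wild-type.

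Within the Gm36388 span, the 3 tested features were not called. MSTRG.6872, the longest feature (187646340 to 187650790, 4451 bp), has its 5′ end 968 bp upstream of the RefSeq start at 187651758 and runs away from it. It had 191, 166, 171, 128, 153 and 179 normalised counts in Nrl-KO, against 191, 187, 145, 171 and 186 in wild-type. The ranges overlap almost wholly, and the log2 difference was -0.10 ± 0.16 (95% interval -0.44 to 0.24, limma, adjusted p = 0.723). The other tested features there were MSTRG.6869, at 2.02 to 11.6 in Nrl-KO and 1.88 to 16.5 in wild-type, and MSTRG.6871, at 3.12 to 9.09 in Nrl-KO and 4.11 to 10.6 in wild-type. Neither was called, with log2 differences of 0.08 ± 0.45 and -0.09 ± 0.35. MSTRG.6868 and MSTRG.6870, of 158 and 110 bp, were under the limit for testing and averaged 1.61 ± 1.34 and 3.65 ± 1.76 in Nrl-KO, against 3.72 ± 4.16 and 6.59 ± 3.89 in wild-type. Outside the window of Esrrg, the nearest features were MSTRG.6865, 20744 bp before it, with 17.1 ± 7.26 in Nrl-KO and 23.9 ± 13.7 in wild-type, MSTRG.6864, with 1.93 ± 1.23 in Nrl-KO and 7.70 ± 3.94 in wild-type, and MSTRG.6890 and MSTRG.6891, 90771 and 138480 bp after it. MSTRG.6890 averaged 10.5 in Nrl-KO and 11.3 in wild-type, and MSTRG.6891 3.15 in Nrl-KO and 1.46 in wild-type.

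**Figure D2:**
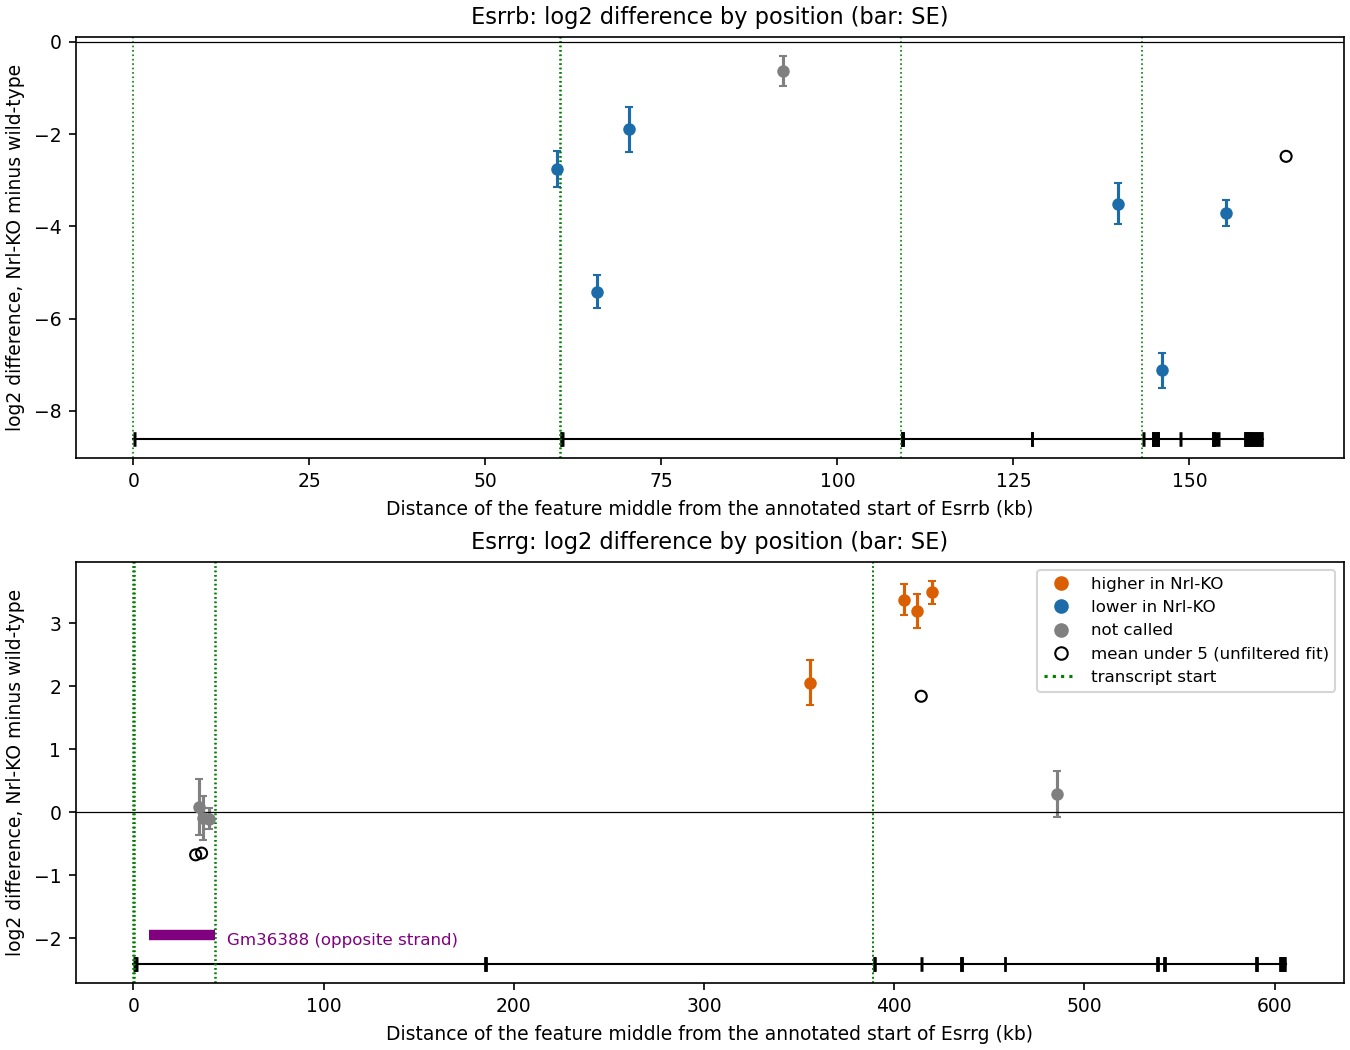
Log2 difference, Nrl-KO minus wild-type, of each feature (point, bar for the SE; open circles for the 4 features under a mean of 5, from the fit without that limit) against the distance in kb of its middle from the start of Esrrb or Esrrg, with exons as ticks on the black line, transcript starts dotted and Gm36388 as a purple bar. At Esrrb 6 of 7 tested points are called and below 0, and at Esrrg the 4 called points lie around and after the start at 187997827 while the tested points in the Gm36388 span lie near 0.

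Levels per length set the features side by side. In Nrl-KO the called Esrrg features had 119 (MSTRG.6882), 83.2 (MSTRG.6877), 36.7 (MSTRG.6880) and 34.6 (MSTRG.6874) normalised counts per kb, against 10.3, 7.54, 3.65 and 6.70 in wild-type. MSTRG.6872, the uncalled one, had 37.0 per kb in Nrl-KO and 39.5 in wild-type, so it was the highest of these 5 in wild-type and stood below MSTRG.6882 and MSTRG.6877 in Nrl-KO. At Esrrb, MSTRG.21447 had 2.06 per kb in Nrl-KO and 364 in wild-type, where it was the highest of all antisense features of both genes. MSTRG.21444 had 35.7 per kb in Nrl-KO and 50.5 in wild-type, and was the highest Esrrb feature in Nrl-KO.

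The summed antisense signal of Esrrb was 59.3, 58.6, 27.4, 49.9, 22.0 and 18.6 normalised counts in Nrl-KO, against 787, 565, 371, 614 and 709 in wild-type. That of Esrrg was 1074, 953, 798, 819, 670.4 and 860.1 in Nrl-KO, against 325, 258, 228, 268 and 287 in wild-type. Thus the Esrrb sum was above the Esrrg sum in every wild-type library, and below it in every Nrl-KO library. The sums are not scaled to length, and cover 7 features of 4577 bp at Esrrb and 11 of 13437 bp at Esrrg. The Esrrb means were 39.3 ± 18.7 in Nrl-KO and 609 ± 158 in wild-type, and the Esrrg means 862 ± 139 in Nrl-KO and 273 ± 36.0 in wild-type. Split by place, the 5 Esrrg features in the Gm36388 span averaged 183 ± 21.5 in Nrl-KO and 199.98 ± 23.6 in wild-type, and the 6 others 679 ± 128 in Nrl-KO and 73.3 ± 14.1 in wild-type, a ratio of 9.26.

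**Figure D3:**
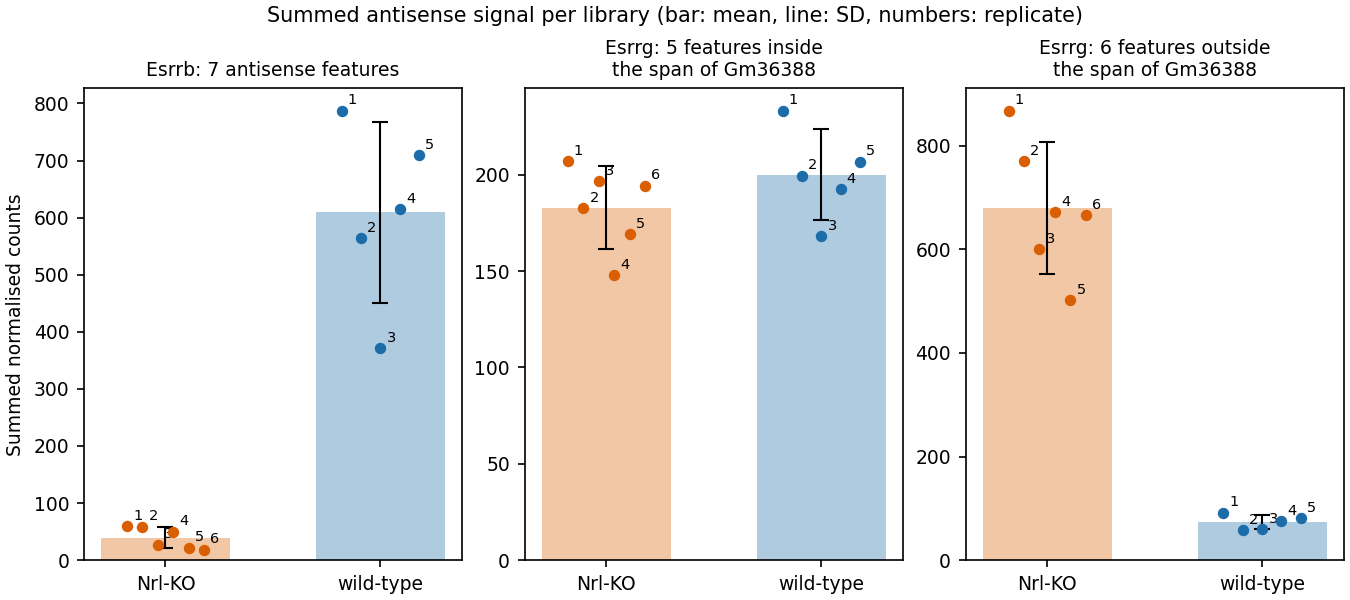
Summed normalised counts of the antisense features of Esrrb and of the Esrrg features inside and outside the span of Gm36388 (bars for means, lines for SD, numbered points for libraries; linear axes from 0 that differ between panels), Nrl-KO left of wild-type. The groups are apart at Esrrb and at the Esrrg features outside the span, and overlap inside it.

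The make-up of each locus changed with the genotype. MSTRG.21447 gave 4.74 ± 4.27% of the Esrrb antisense signal in Nrl-KO and 58.8 ± 3.10% in wild-type, whereas MSTRG.21444 gave 57.4 ± 7.26% in Nrl-KO and 5.57 ± 1.45% in wild-type. The share of MSTRG.21449 was 18.2 ± 4.69% in Nrl-KO and 16.2 ± 1.34% in wild-type. At Esrrg, MSTRG.6882 gave 48.1 ± 2.82% in Nrl-KO and 13.1 ± 1.71% in wild-type, and the features of the Gm36388 span 21.5 ± 3.08% in Nrl-KO and 73.3 ± 2.40% in wild-type. As a ratio within each library, log2 of MSTRG.21447 over MSTRG.21444 was -3.09 ± 0.85 in Nrl-KO and 3.40 ± 0.46 in wild-type (SD). Log2 of MSTRG.6882 over MSTRG.6872 was 1.32 ± 0.26 in Nrl-KO and -2.27 ± 0.24 in wild-type. Both ratios separated all libraries of the groups, with p = 0.00216 in an exact two-sided permutation test, the smallest that the test can give with 6 and 5 libraries. Each pair sets the most abundant called feature of a gene against the most abundant uncalled one, so the choice used the same comparison, and the p is no independent support.

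Some libraries stood low at several features. Wild-type 3 was the lowest wild-type library at 7 of 7 antisense features of Esrrb, with a sum of 371 against 565 to 787 in the others. In the knock-out, libraries 1, 2 and 4 had sums of 49.9 to 59.3 and libraries 3, 5 and 6 of 18.6 to 27.4, and MSTRG.21444 alone had 30.7 to 36.3 in the first 3 and 9.76 to 17.4 in the other 3. At the called Esrrg features the lowest Nrl-KO library was library 5 or 6 in 4 of 4. One read was worth 0.758 to 1.04 normalised counts in Nrl-KO libraries and 0.928 to 1.37 in wild-type libraries, and the part of such scaling in these patterns was not tested.

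The deposited table assigns each feature to a chromosomal domain. The Esrrg features from MSTRG.6868 to MSTRG.6874 lie in one domain, and those from MSTRG.6877 to MSTRG.6883 in the stretch between domains, so both places hold called and uncalled features. The authors' deposited table lists Esrrb among the mRNAs that are lower in the Esrrb domain, together with Vash1, an angiogenesis inhibitor, as higher. It lists no changed mRNA for the Esrrg features in the domain or in the stretch between domains, so the direction of Esrrg mRNA cannot be read from it.

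The pattern of MSTRG.21447 over the 11 libraries was most like that of MSTRG.53410 opposite to Gm14278, MSTRG.90306 opposite to Glb1l2 and MSTRG.94151 opposite to Sema3f. Their root mean square differences of centred log2 values were 0.457, 0.462 and 0.549, against a median of 3.65 over 21380 features. MSTRG.53410 averaged 2.23 ± 1.82 in Nrl-KO and 307 ± 92.4 in wild-type. For MSTRG.6882 the closest were MSTRG.69943, intergenic near Aym1, MSTRG.11147, intergenic near Lgr5, and MSTRG.15954 opposite to Ap2b1, at 0.140, 0.163 and 0.172 with a median of 1.83.

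Features at genes of the receptors' family and cofactors were counted from a list. Without Esrrb and Esrrg, 18 features at 8 of 11 genes were tested, of which 2 were higher and 6 lower, beside 15.6% higher and 12.6% lower among all tested features. The median over the 18 was -0.19 on the log2 scale, beside -0.02. The lowest was MSTRG.371 at Ncoa2, a steroid receptor coactivator, with 1.13 ± 1.17 in Nrl-KO and 111 ± 47.9 in wild-type (log2 difference -5.80). At Ppargc1b, a PGC-1 coactivator of these receptors, MSTRG.43347 had 1.41 ± 0.843 in Nrl-KO and 40.2 ± 14.1 in wild-type, a log2 difference of -4.14. At Nrip1, a corepressor of nuclear receptors, features were called in both directions, with log2 differences of 1.43, 1.35 and -2.12. Esrra, the third receptor of the family, had no tested feature.

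Among 39 other nuclear receptor genes, 50 features at 14 genes were tested, of which 12 were higher and 5 lower, beside the same 15.6% and 12.6%, and the median was -0.04. Rora, a receptor known from cerebellum and from cone opsin expression, had 6 of its 13 tested antisense features higher. Those with the largest log2 difference were MSTRG.92252 (3.56) and MSTRG.92246 (3.53). The abundant MSTRG.92251 there had 483 ± 85.8 in Nrl-KO and 42.2 ± 12.3 in wild-type, a log2 difference of 3.52 ± 0.20 (SE), beside 3.50 ± 0.18 at MSTRG.6882. Thrb, the thyroid hormone receptor of cones, had 3 of 4 features higher, and Rorb, a receptor needed for rod development, 2 of 3 lower, at log2 differences of -2.90 and -2.88. Changes in both directions among features of 1 gene, as at Nrip1, were found at neither Esrrb nor Esrrg. Past a log2 difference of 3 in either direction, 2.64% of all tested features were called higher and 3.23% lower, and MSTRG.21442, MSTRG.21446, MSTRG.21447 and MSTRG.21449 of Esrrb and MSTRG.6877, MSTRG.6880 and MSTRG.6882 of Esrrg were among these.

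**Figure D4:**
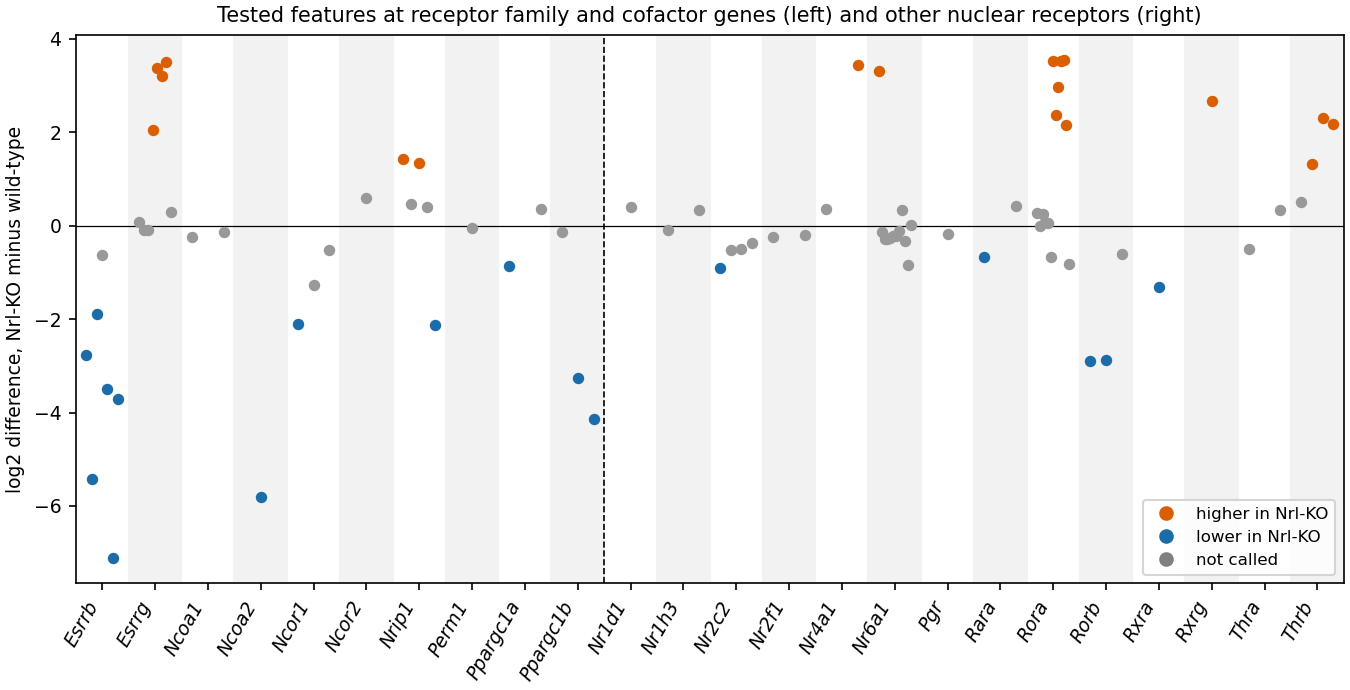
Log2 difference, Nrl-KO minus wild-type, of each tested feature (point) at genes of the receptor family and its cofactors (left of the dashed line) and at other nuclear receptor genes (right), with calls in color and uncalled features in grey. The called features of Rora, Thrb and Esrrg lie above 0, and those of Esrrb and Rorb below 0.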

How the data were processed

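Retina RNA depleted of poly A transcripts was sequenced in 6 Nrl-KO and 5 wild-type libraries. Per the file headers, each library column holds DESeq2-normalised counts made by the authors, a signal and not raw counts. Builds mm9 and mm10 and the tools Cuffdiff, Cufflinks 2.2.1 and TopHat2 2.0.10 appear in the submitters' processing notes, with no roles. The assembler and the use of strand in counting are not stated, so reads of a feature and of the gene opposite to it cannot be told apart with certainty. Per the file headers, the log2 fold change, its standard error and the raw and adjusted p-value come from a comparison by the authors. A deposited score, of opposite sign to the fold change in 100% of features, was not used.

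Members and lists were chosen with earlier results of these data known. Members were all 19 features overlapping the windows. The table's starts count from 0 and are printed counting from 1. Places come from GENCODE M21. Features with a mean of at least 5 (21395 of 36097) were tested on log2(normalised count + 1) with limma 3.58.1 (trend, robust; two-sided; R 4.3.3). The test was tried on simulated data. All values were whole multiples of 1 read (100%, tolerance 0.001), so edgeR 4.0.16 and DESeq2 1.42.0 were run on the recovered reads of 9 libraries, where they called 5723 and 5468 features. Nrl-KO 2 and wild-type 5 were left out of these because 1 read is worth nearly 1 normalised count there. Other alternatives were pseudocounts, filters, scalings, a replicate block and each library left out. The text gives every member, with values per library where the mean was at least 20 or the feature was called. It also gives the nearest features outside the windows, the 3 features most like the leading member of each gene, and the features of largest change in each list. MSTRG.21450 and the other changes along Rora, Thrb, Rorb, Nrip1 and Ppargc1b were named after their values were seen. Intervals of read ratios are exact at 95% and, like floors of 3 reads, cover counting error only.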

Additional observations from a re-analysis of the deposited data

Results flagged for a closer look

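In wild-type 1, MSTRG.6868 in the Gm36388 span of Esrrg had 10.97 normalised counts, and the next highest wild-type library had 2.90. The gap was 0.805 of the range of the 5 wild-type libraries, above the critical value of 0.710. Of 38 groups examined (19 features in 2 genotypes), this was the 1 that stood out, and chance flags about 1 in 20 groups. The feature was below the limit for testing and carries no call.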

How the results depend on the processing

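Every member kept its side of the threshold under the alternatives in which it was tested, and every called member its direction. The uncalled MSTRG.6869 and MSTRG.6871 of Esrrg lie near 0 and changed sign with some libraries left out. MSTRG.6869, at 0.08 over all libraries, was -0.035 without Nrl-KO 1, -0.092 without Nrl-KO 3, -0.21 without wild-type 2 and -0.028 without wild-type 3, within a range of -0.21 to 0.44 over the libraries left out. MSTRG.6871, at -0.09 over all libraries, was 0.072 without Nrl-KO 1 and 0.058 without wild-type 4, within -0.24 to 0.072. With a mean of at least 20, 8266 features were tested and 3350 called, 1722 higher and 1628 lower, among them 3 Esrrb features lower and 3 Esrrg features higher; fewer features were tested. With no filter 7607 were called, with 7 Esrrb features lower and 5 Esrrg features higher. Leaving out 1 library gave 5481 to 6241 calls (higher 3115 to 3456, lower 2366 to 2785), with 6 Esrrb features lower, 0 higher, 4 Esrrg features higher and 0 lower each time. The within-library contrasts then were -6.76 to -6.27 at Esrrb and 3.53 to 3.66 at Esrrg. With pseudocounts of 0.5 and 5 the log2 difference of MSTRG.21447 was -7.59 and -5.69 and that of MSTRG.21446 -4.27 and -1.78, and DESeq2, another model on 9 libraries, gave -7.75 and -5.83. That of MSTRG.6882 was 3.36 to 3.58 over all alternatives. Libraries of the same number correlated at 0.00135 to 0.294 in their deviations from the group means, and 2 of 5 correlated best with their own number, so numbers were not taken as pairs. As an alternative only, a replicate block, in which Nrl-KO 6 has no partner, gave 6932 called features. The same numbers of Esrrb (6) and Esrrg (4) features were among them. The contrasts were then -6.42 and 3.62 with an exact sign-flip p of 0.0625, the smallest that 5 pairs allow. Each contrast sets a called feature against an uncalled one of the same comparison, so this p too is no independent support. Features under about 3 reads per library cannot be told from 0.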

Other observations

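Features at genes of energy metabolism that are known targets of estrogen-related receptors were counted from a list. Of 20 tested features at 8 of 28 genes, 2 were higher in Nrl-KO, 3 lower and 15 uncalled, and the median was -0.03 on the log2 scale. Among all 21395 tested features 15.6% were higher and 12.6% lower, with a median of -0.02, so the count is near that of all features. The largest was MSTRG.79785 at Kcnj14, a potassium channel gene, with 0.597 ± 0.928 normalised counts in Nrl-KO and 131 ± 39.2 in wild-type (log2 difference -6.49). Kcnj14 is also in the rod list. At Nrf1, a transcription factor of mitochondrial genes, MSTRG.72860 was higher (log2 difference 2.72) and MSTRG.72863 lower (-1.14). At Cpt1a, the enzyme that lets long-chain fatty acids enter mitochondria, MSTRG.44217 had 0.63 and MSTRG.44218 -0.94, both called by limma.

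Markers of other retinal cells had few tested features. Of 6 Müller glia genes only 1, Car2, had tested features, 2 in number. There limma called 1 of 2 lower, beside 12.6% of all tested features, edgeR called both and DESeq2 called 0. Their sums were 6.83 to 22.2 in Nrl-KO and 23.3 to 43.3 in wild-type. The 3 amacrine features and 1 ganglion cell feature were not called by limma, edgeR or DESeq2, and 0 of them had an unadjusted p under 0.05. Horizontal cell, pigment epithelium, microglia and red blood cell lists had no tested feature.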
